A study of Homo sapiens with 2 samples.

Results

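The 10 genes described here encode amino acid transporters of the plasma membrane: SLC3A2, SLC7A5, SLC7A6, SLC7A11, SLC7A1, SLC1A4, SLC1A5, SLC38A1, SLC38A2 and SLC6A9. They were chosen by name from the transporter families, with their FPKM ratios between these same 2 libraries already known, so those ratios are a description and support no test. All 10 were found among the 57485 genes of the deposited tables. The cells were ARP1, a human multiple myeloma line, carrying a lentiviral TRIPZ hairpin against SRD5A1 that doxycycline (Dox) switches on. The series holds 1 library of these ARP1-SRD5A1-KD cells without Dox and 1 with Dox, sequenced to look for RNAs that differ after the knockdown, so no difference here has a replicate check. Both groups carry the hairpin vector, and a Dox-treated culture without the hairpin was not analysed here, so an effect of the hairpin and an effect of Dox cannot be told apart. The dose and duration of Dox for these libraries, and whether the transduced cells were 1 clone or a pool, are not given in the sources used here. In the labels of the Dox library, the genotype entry gives the hairpin as one against SRD5A2, but the title gives SRD5A1.

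Amino acids cross the plasma membrane through carriers that fall into a few working types. SLC3A2 (CD98, 4F2hc) is a heavy chain that carries no amino acid itself but brings a light chain of the SLC7 family to the cell surface, and the pair then swaps an amino acid outside for one inside. Uniporters such as SLC7A1 work without that heavy chain, the SLC1 exchangers trade neutral amino acids in the presence of sodium, and the SLC38 and SLC6 carriers use the sodium gradient to concentrate amino acids in the cell. Plasma cells secrete large amounts of protein and so have a high demand for amino acids. When amino acids run short, cells are known to make the transcription factor ATF4, which binds DNA elements known as C/EBP-ATF response elements near many transporter genes.

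The windows below are shown because most of these genes were higher together and because the core letters of that element, TGATGNAAN, can be looked for near their starts. RefSeq windows of 250 bases before and 50 bases from each gene start (GRCh38.p14) were used for 9 of the 10 genes, all but SLC7A11, and made up 15 windows since some genes have several starts. The letters were found, on either strand, in 5 of the 15 windows, beside 3.61% of all 35116 windows. The 5 windows belong to 5 genes, of which SLC3A2 and SLC1A5 have 3 windows each, SLC1A4 and SLC38A1 have 2 each and SLC7A1 has 1. A gene with more windows has more places for a match, and no share per gene was computed over all genes. The genes were picked with their ratios known, so the contrast of windows is a description and supports no test. Each line gives the strand of the gene from 5′ to 3′, with the match in capitals and up to 10 bases on each side.
SLC7A1: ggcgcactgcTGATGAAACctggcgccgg
SLC3A2: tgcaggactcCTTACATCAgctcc
SLC1A4: gcggctcccgTTTGCATCAtctccagccg
SLC38A1: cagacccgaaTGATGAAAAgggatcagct
SLC1A5: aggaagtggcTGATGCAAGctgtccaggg

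The SLC7A1 stretch is chr13:29595663-29595691 on the reverse strand, and its match runs from base 8 to base 16 counted from the RefSeq start, in an exon but outside the coding sequence. The SLC3A2 stretch is chr11:62881725-62881748 on the forward strand, with the match on the opposite strand at bases 37 to 45, outside the coding sequence in an exon of 5 of the 14 GENCODE transcripts that span it. The SLC1A4 stretch, chr2:64989381-64989409 on the forward strand, has its match on the opposite strand at bases -8 to 1, across the RefSeq start. It lies in an intron of the 3 GENCODE transcripts that span it. The SLC38A1 stretch is chr12:46266502-46266530 on the reverse strand, with the match at bases -4 to 5, also across the RefSeq start. It lies in an intron of 8 GENCODE transcripts. The SLC1A5 stretch is chr19:46784893-46784921 on the reverse strand, with the match at bases -97 to -89, before the RefSeq start. It lies in an exon of 1 of the 3 GENCODE transcripts spanning it, outside the coding sequence. Of the starts behind these matches, only that of SLC7A1 is the first base of its gene in GENCODE. The others lie inside their genes, 922 bases downstream of the first base for SLC1A4, 3501 for SLC38A1, 3780 for SLC1A5 and 25597 for SLC3A2. The single windows of SLC6A9, SLC38A2, SLC7A5 and SLC7A6 did not hold these letters. Of the genes past 2-fold higher with Dox, SLC7A1, SLC3A2 and SLC1A5 had a match, SLC6A9 and SLC38A2 had none, and SLC7A11 was not searched. Of those within 2-fold, SLC38A1 and SLC1A4 had a match, and SLC7A5 and SLC7A6 had none. Whether the element acts on these genes was not tested. An AP-1 motif, TGACTCA, was in 2 of the 15 windows, one of SLC3A2 and one of SLC38A1, beside 4.95% of all windows, and did not overlap the matches above. A match of letters is no measured binding site.

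The libraries held 45918570 expected counts without Dox and 48728927 with Dox. SRD5A1 itself, the gene targeted by the hairpin, had 13.04 FPKM without Dox and was higher, not lower, under the Dox label (25.88 FPKM), so each direction given below rests on the labels. All 10 plasma cell markers listed for the check (SDC1, TNFRSF17, IRF4, PRDM1, XBP1, SLAMF7, CD38, MZB1, JCHAIN and POU2AF1) were at or above 15.73 FPKM in both libraries. The T cell genes CD3D and CD2 had 0 counts in both. None of the 9 markers of T, myeloid and stromal cells reached 1 FPKM in both libraries. Of the 4 epithelial markers 2 did, EPCAM (1.93 FPKM without and 1.52 FPKM with Dox) and KRT18 (6.0 and 1.44 FPKM). Together the 4 summed to 8.73 FPKM without and 4.18 FPKM with Dox.

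In the library labelled with Dox, 9 of the 10 transporters were higher and SLC7A6 was lower. A gene was counted as changed when it was past 2-fold, on log2 of FPKM plus a pseudocount of 0.1, a scale that understates the change of low genes. By this rule 6 of the 10 were higher, namely SLC6A9, SLC7A11, SLC38A2, SLC3A2, SLC1A5 and SLC7A1, and 0 were lower. Among the 14859 genes that reached 1 FPKM in either library, which include all 10, 17% were past 2-fold higher and 6.41% past 2-fold lower. The median log2 ratio of the 10 was 1.48, beside 0.15 over all genes tested, of which 58.4% were above 0. The 10 genes together went from 751 to 2370 summed FPKM, and from 0.247% to 0.676% of all counts. These are shares of the RNA of a culture, in which more cells with an RNA and more of that RNA per cell cannot be told apart.

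SLC3A2, the heavy chain, was at 137.85 FPKM (8590 counts) without Dox and 707.19 FPKM (41452 counts) with Dox, a log2 ratio of 2.36 (95% counting interval 2.32 to 2.39). It went from rank 806 to rank 147 among all listed genes by FPKM and from the third highest to the highest of the 10. Its light chain partners did not change alike. SLC7A5 (LAT1), which takes up leucine and other large neutral amino acids in exchange for glutamine, was at 156.24 FPKM without and 305.72 FPKM with Dox, a log2 ratio of 0.97 (95% counting interval 0.95 to 0.99). SLC7A11 (xCT), which imports cystine in exchange for glutamate, was at 2.15 FPKM without and 32.50 FPKM with Dox, a log2 ratio of 3.86 (counting interval 3.76 to 3.96) on 874 and 14194 counts. SLC7A6 (y+LAT2), which exchanges cationic against neutral amino acids, was at 36.27 FPKM without and 18.96 FPKM with Dox, a log2 ratio of -0.93 (counting interval -0.99 to -0.87). Only 119 of the tested genes had a larger log2 ratio than SLC7A11, whereas 1112 had a lower one than SLC7A6. The intervals are exact binomial (Clopper-Pearson) and cover counting error only, not the spread between cultures.

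The heavy chain pairs 1 to 1 with a light chain, so their RNA levels per length were set side by side. The light chains known to use it (SLC7A5, SLC7A6, SLC7A7, SLC7A8, SLC7A10 and SLC7A11) summed to 196 FPKM without Dox and 361 FPKM with Dox. SLC3A2 was thus at 0.703 (counting interval 0.687 to 0.72) of their sum without Dox and at 1.96 (1.94 to 1.98) times their sum with Dox. Within the sum, SLC7A5 held 79.6% without Dox and 84.6% with Dox, so most of the light chain RNA was SLC7A5 in both libraries. SLC7A6 held 18.5% without and 5.25% with Dox, and SLC7A11 held 1.1% without and 9.0% with Dox. The order of these minor light chains was therefore exchanged, with SLC7A11 at 0.0593 of SLC7A6 without Dox and at 1.71 times SLC7A6 with Dox. The ratio of SLC7A5 to SLC7A11 went from 72.7 to 9.41.

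**Figure D1:**
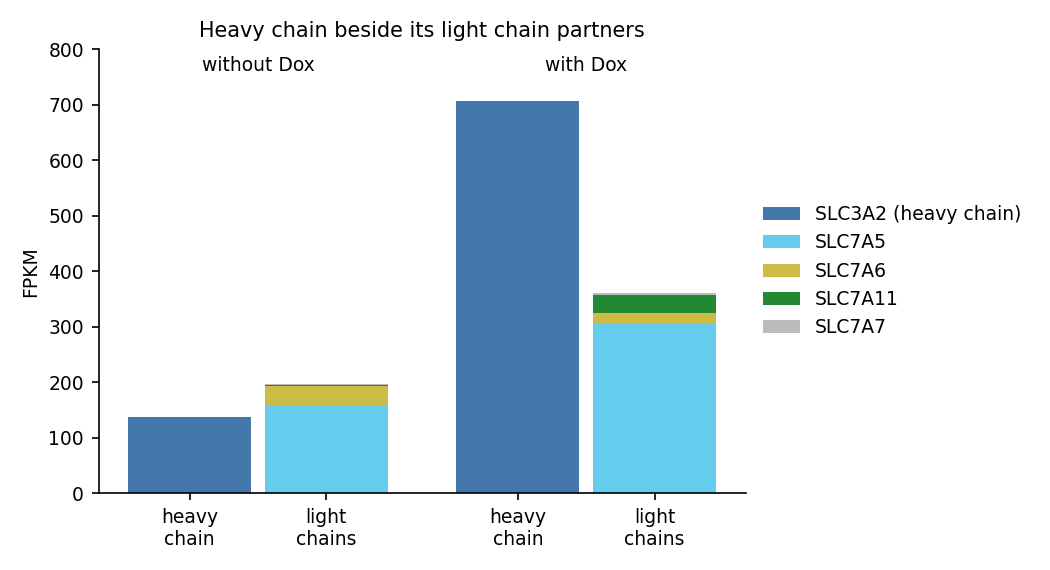
FPKM of the heavy chain SLC3A2 (dark blue) beside the stacked FPKM of its light chains in the library without Dox (left pair) and with Dox (right pair), 1 library each and no error bars; SLC7A8, at 0.06 and 0.14 FPKM, and SLC7A10, at 0, are not drawn. The heavy chain bar is below the light chain stack without Dox (138 and 196 FPKM) and above it with Dox (707 and 361 FPKM).

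SLC7A1 (CAT1), the uniporter of arginine, lysine and ornithine, was at 30.28 FPKM (9742 counts) without Dox and 76.06 FPKM (26211 counts) with Dox. The log2 ratio was 1.33 (counting interval 1.29 to 1.36), a fold of 2.51. Of the 6 genes past 2-fold it had the smallest ratio, and 1643 of the 14859 genes tested had a larger one.

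The sodium-dependent exchangers of neutral amino acids are SLC1A5 (ASCT2), known for glutamine uptake, and SLC1A4 (ASCT1), which carries alanine, serine, cysteine and threonine. SLC1A5 was the highest of the 10 without Dox, at 221.71 FPKM, and the second with Dox, at 686.58 FPKM. Its log2 ratio was 1.63 (counting interval 1.61 to 1.65) on 23391 and 74303 counts. SLC1A4 was at 43.78 FPKM without and 81.63 FPKM with Dox, a log2 ratio of 0.90 (counting interval 0.86 to 0.94), short of 2-fold. The FPKM of SLC1A5 was 5.06 times that of SLC1A4 without Dox and 8.41 times with Dox.

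Among the sodium-coupled carriers, SLC6A9 (GLYT1), which takes up glycine, had the largest log2 ratio of the 10. Its reads came to 285 counts without Dox and 7915 counts with Dox, which are 2.83 and 74.63 FPKM. The log2 ratio was 4.67 (counting interval 4.50 to 4.85), and 59 of the genes tested had a larger one. SLC38A2 (SNAT2), a system A carrier of small neutral amino acids such as alanine and glutamine, was at 44.85 FPKM (6239 counts) without and 243.99 FPKM (39799 counts) with Dox, a log2 ratio of 2.44 (counting interval 2.4 to 2.48). SLC38A1 (SNAT1), its close relative, was at 74.90 FPKM (22085 counts) without and 145.32 FPKM (46476 counts) with Dox, a log2 ratio of 0.96 (counting interval 0.93 to 0.98). The pair changed places, since SLC38A1 was at 1.67 times SLC38A2 without Dox and at 0.596 of it with Dox.

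Ordered by FPKM without Dox, the 10 genes ran SLC1A5, SLC7A5, SLC3A2, SLC38A1, SLC38A2, SLC1A4, SLC7A6, SLC7A1, SLC6A9 and SLC7A11. With Dox the order was SLC3A2, SLC1A5, SLC7A5, SLC38A2, SLC38A1, SLC1A4, SLC7A1, SLC6A9, SLC7A11 and SLC7A6. The highest was 103 times the lowest without Dox and 37.3 times with Dox. This narrower range came from SLC7A11 and SLC6A9, at 2.15 and 2.83 FPKM without Dox. Without that pair, the range was from 30.28 to 221.71 FPKM without Dox and, wider, from 18.96 to 707.19 FPKM with Dox. SLC7A11 and SLC6A9, the lowest pair without Dox, had the largest ratios, and SLC7A6 was the lowest with Dox. With 1 library each, neighbours such as SLC38A2 and SLC1A4 without Dox (44.85 and 43.78 FPKM) or SLC3A2 and SLC1A5 with Dox (707.19 and 686.58 FPKM) have no replicate spread against which to be ordered.

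The call past 2-fold depended on the scaling for 3 of the 10. SLC7A5, SLC38A1, SLC1A4 and SLC7A6 lay just inside 2-fold with the deposited FPKM, and SLC1A4 stayed inside it under each scaling. With TPM the ratios were about 0.10 higher on the log2 scale, and 8 transporters were past 2-fold higher, SLC7A5 at 1.06 and SLC38A1 at 1.05 among them, beside 19.1% of all genes tested, with 5.26% lower. With FPKM divided by the TMM factors of edgeR every ratio was about 0.22 lower, the median of all genes tested went from 0.15 to -0.06, and the same 6 genes were past 2-fold higher, beside 13% of all genes. SLC7A6 was then past 2-fold lower at -1.15, beside 10.4% of all genes. The signs of all 10 genes were shared by these scalings.

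The deposited FPKM divides by an effective length, which is given anew for each library. Beside it stands a mean length, weighted over the transcripts of a gene, and that mean length is quoted here. It is not the divisor itself. The mean length differed most for SLC38A2, from 3272.72 to 3593.1 bases (9.8% longer with Dox), and for SLC3A2, from 1600.03 to 1448.52 bases (9.5% shorter). SLC1A4 was 5.9% longer, and the other 7 genes differed by 2.9% or less. On counts scaled to the library total (CPM), which use neither length, the log2 ratio was 2.59 for SLC38A2, 2.19 for SLC3A2 and 0.99 for SLC1A4. On FPKM these ratios were 2.44, 2.36 and 0.90. The tables list 14 transcripts of SLC38A2 and 23 of SLC3A2, without a level for each.

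SLC7A6 (ENSG00000103064.14, chromosome 16 from 68264516 to 68301823 in GRCh38) shares exon sequence with SLC7A6OS on the opposite strand, with up to 3371 bases in 1 exon. Whether reads were counted by strand is not given in the sources used here, so reads of this pair may not be told apart. SLC7A6OS was at 15.22 FPKM without and 11.41 FPKM with Dox, a log2 ratio of -0.41, and its counts were 35.3% and 59.1% of those of SLC7A6. With the counts of both genes summed, the log2 ratio of CPM was -0.70. SLC6A9 (ENSG00000196517.11, chromosome 1 from 43991500 to 44031467) overlaps CCDC24 on the opposite strand by up to 219 bases of exon, and CCDC24 was listed with 140 counts without and 100 with Dox, so it did not share the direction of SLC6A9. The pseudogene copy SLC7A5P2 was listed with 13.8 and 7.76 counts, few beside the 28820 and 59698 of SLC7A5. Antisense genes that overlap exons of SLC7A5, SLC7A11 and SLC1A5 in GENCODE were not analysed here.

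The families hold 31 further plasma membrane carriers on the list used here, of which 24 were below 1 FPKM in both libraries. Of the 7 tested, 1 was past 2-fold higher and 3 past 2-fold lower, beside 17% and 6.41% of all genes tested. Their median log2 ratio was -0.97. This split depended on the scaling, with 3 higher and 2 lower by TPM and 1 higher and 4 lower with TMM factors. SLC6A20, at 0.55 FPKM without and 1.2 FPKM with Dox, lay at the 2-fold limit and was not counted. On the lower side SLC16A10, at 3.09 FPKM without and 1.53 FPKM with Dox, was just inside 2-fold at -0.97. With TMM factors SLC16A10 was past 2-fold lower at -1.17. SLC7A7 (y+LAT1), another light chain, was at 1.48 FPKM without and 3.84 FPKM with Dox on 113 and 218 counts, while its listed mean length went from 1907.29 to 1409.31 bases. The counts of SLC7A7 alone were less than 2-fold higher with Dox, so its call past 2-fold depends on the length used. SLC38A5 (SNAT5) was the highest of all 41 plasma membrane carriers without Dox, at 424.75 FPKM, and was at 202.69 FPKM with Dox, a log2 ratio of -1.07. The taurine transporter SLC6A6 was at 23.04 FPKM without and 7.68 FPKM with Dox, a log2 ratio of -1.57. SLC43A2 (LAT4), a uniporter of large neutral amino acids, was at 2.4 and 0.46 FPKM, a log2 ratio of -2.16. SLC43A1 (LAT3), which carries a like set of amino acids, was at 45.61 and 91.25 FPKM, and its log2 ratio was just short of 1. The 10 genes, picked with their ratios known, held 59.9% of the summed FPKM of the 41 carriers without Dox and 88.4% with Dox. Most of the remainder was SLC38A5, with 424.75 of 502 FPKM without Dox and 202.69 of 311 FPKM with Dox. Within system A and N carriers the leading RNA was another in each library, with SLC38A5 at 9.47 times SLC38A2 without Dox and at 0.831 of it with Dox.

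**Figure D2:**
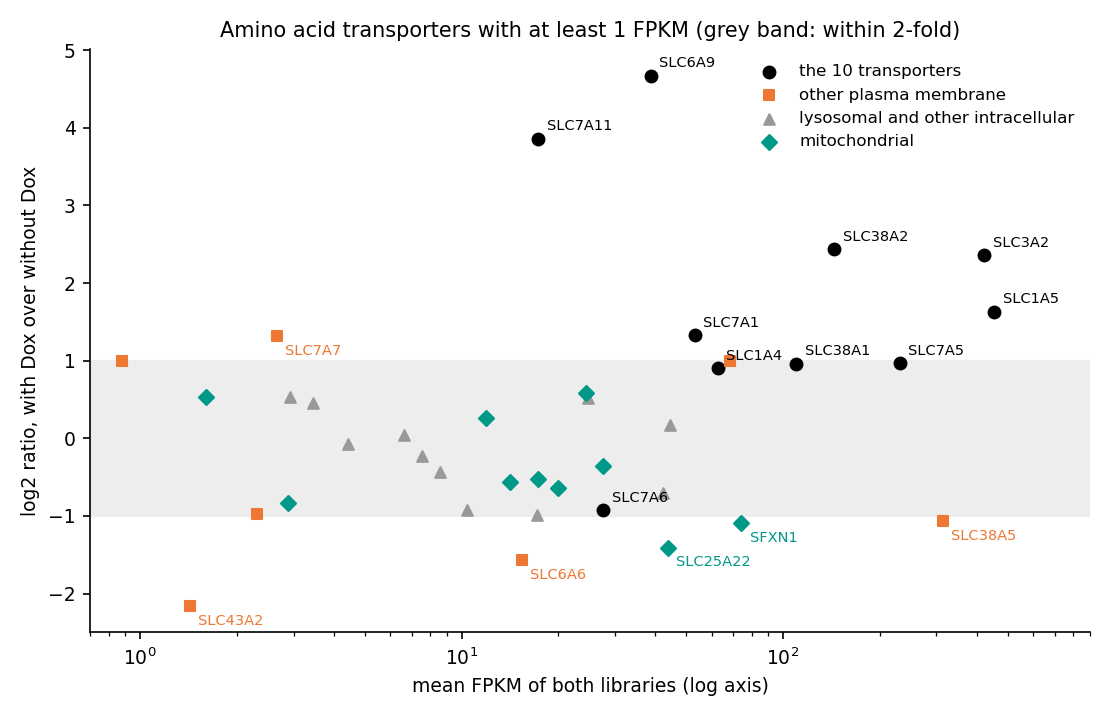
Log2 ratio with Dox over without Dox against the mean FPKM of both libraries (log axis) for the 10 transporters (black circles) and for the tested genes of 3 other lists, the other plasma membrane carriers (orange squares), lysosomal and other intracellular carriers (grey triangles) and mitochondrial carriers (green diamonds). The 10 are named, as are the genes of the other lists outside the grey band of 2-fold, of which SLC7A7 lies above it and SLC38A5, SLC6A6, SLC43A2, SLC25A22 and SFXN1 lie below it.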

How the data were processed

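RNA of ARP1-SRD5A1-KD cells was read in pairs of 150 bases, 1 library without and 1 with Dox. The authors deposited expected counts per gene, TPM and FPKM, in the layout that RSEM writes, with a length and an effective length for each gene and library. Their processing notes list HISAT2 2.1.0, StringTie 1.3.4d, Bowtie 0.12.2 and hg19, with no role for each. Of 204675 transcripts in the tables, 202888 are in GENCODE release 29 (GRCh38), whose coordinates are used. The pseudocount of log2 ratios was 0.1 FPKM, and genes below 1 FPKM in both libraries were left out. With 1 library per condition no test was made. A floor of 3 counts equals 0.065 and 0.062 CPM. TMM factors came from edgeR 4.0.16 and size factors from DESeq2 1.42.0 in R 4.3.3, on rounded counts. Python 3.11.15 with pandas 2.3.3, numpy 2.4.6, scipy 1.17.1 and matplotlib 3.10.9 did the rest. The ratio step was tested on simulated Poisson counts, with the same lengths in both libraries and no spread between cultures. The members and lists were chosen with earlier results of these data known. Named are the 10 members, SRD5A1 and, from each other list, genes past 2-fold with at least 1 FPKM and the 4 highest by mean FPKM. A few more are named that lay at the 2-fold limit or were past it under another scaling. Proteins were not used here. One marker check is not reported here.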

Additional observations from a re-analysis of the deposited data

How the results depend on the processing

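The 4 settings other than the deposited FPKM with a pseudocount of 0.1 (pseudocount of 1 FPKM, TPM, TMM factors, DESeq2 size factors) left the sign of all 10 transporters as it was, in 40 of 40 values, of which 9 lay within the counting interval. The number past 2-fold higher was 6 to 8 under these and the filters, and 9 at 1.5-fold. The number lower was 1, SLC7A6, with TMM factors, with DESeq2 size factors and at 1.5-fold. The median of the 10 was 1.58 with TPM, 1.26 with TMM factors and 1.27 with DESeq2 size factors. Among the other plasma membrane carriers, the number higher was 0 with a pseudocount of 1 FPKM and with at least 5 FPKM (3 genes left to test), and 3 with TPM, with no filter and at 1.5-fold. Their number lower was 2 with TPM and with at least 5 FPKM, and 4 with TMM factors, with DESeq2 size factors and at 1.5-fold. Over all genes, 1606 were higher with a pseudocount of 1 FPKM, 1546 lower with TMM factors and 1526 with DESeq2 size factors. There were 4735 higher and 1897 lower with no filter, 1256 and 603 with at least 5 FPKM, and 4358 and 2288 at 1.5-fold. Beyond the filters and limits themselves, the cause was not tested. No paired analysis was possible because each condition was sequenced in a single library. Depth does not limit the 10 genes, the lowest having 285 counts, but the missing replicates do.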

Other observations

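The carriers inside the cell were described in the same way. Of 14 lysosomal and other intracellular carriers on the list used here, 11 were tested, with a median log2 ratio of -0.08 and a range from -0.99 to 0.53. With the deposited FPKM 0 were past 2-fold in either direction, beside 17% higher and 6.41% lower over all genes tested. With TMM factors SLC17A9 (-1.2) and SLC36A4 (-1.13) were past 2-fold lower, beside 10.4% of all genes. SLC38A9, known as the lysosomal arginine sensor upstream of mTORC1, was at 20.24 FPKM without and 29.09 FPKM with Dox. SLC38A10 was at 41.92 and 47.16 FPKM, and MFSD12, which brings cysteine into lysosomes, at 52.41 and 32.20 FPKM. SLC17A9, which is better known as a carrier of nucleotides, was at 22.92 and 11.50 FPKM.

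Of 12 mitochondrial amino acid carriers, 10 were tested, and their median log2 ratio was -0.55. With the deposited FPKM 0 were past 2-fold higher and 2 past 2-fold lower, beside 17% and 6.41% of all genes tested. With TPM SFXN1 was within 2-fold at -0.99, and with TMM factors SFXN3 (-1.04) was past 2-fold lower as well. SFXN1, a carrier of serine into mitochondria, was at 100.93 FPKM without and 47.41 FPKM with Dox, a log2 ratio of -1.09. The glutamate carrier SLC25A22 was at 63.79 and 23.86 FPKM, a log2 ratio of -1.41. SLC25A44, a carrier of branched-chain amino acids, was at 31.12 and 24.16 FPKM, and SLC25A38, which carries glycine, at 19.53 and 29.22 FPKM. The glycine carrier of the plasma membrane, SLC6A9, went from 2.83 to 74.63 FPKM, while that of mitochondria was within 2-fold.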
